A study of Homo sapiens with 6 samples.

Results

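Polyamine synthesis and breakdown was followed through 10 genes, chosen by symbol from the 36601 genes of the files: ODC1, SRM, SMS, AMD1, SAT1, OAZ1, OAZ2, AZIN1, PAOX and SMOX. All 10 were found and all 10 passed the low-count filter. Expression was read in SK-N-BE(2)-C, a human neuroblastoma cell line, by Seq-Well S3, in which single cells are captured with barcoded beads in small wells. The 6 libraries formed 3 groups of 2 by treatment: DMSO, a solvent serving as control; TSA, read here as the histone deacetylase inhibitor trichostatin A; and E6R, known only by this code. The series title names an inhibitor that acts on the HDAC complex other than through its enzyme activity. The sources used here give no doses or treatment times, and nothing stated that replicates were separate cultures, so p-values measure only the spread between these libraries. The data bear on whether either treatment changed the transcripts of this pathway, and by how much.

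Polyamines (putrescine, spermidine and spermine) are small positively charged molecules that bind nucleic acids and that dividing cells need. ODC1 makes putrescine from ornithine, AMD1 supplies the aminopropyl donor, and SRM and SMS add aminopropyl groups to make spermidine and spermine. SAT1 acetylates spermidine and spermine for export or for oxidation by PAOX, and SMOX oxidises spermine directly. The antizymes OAZ1 and OAZ2 bind the ODC1 protein and send it to the proteasome, and the antizyme inhibitor AZIN1, an inactive relative of ODC1, captures antizymes. ODC1 is a textbook target of MYC and of MYCN, which is amplified in many neuroblastomas.

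Of the 10 genes, 7 had promoter windows in the RefSeq table (GRCh38.p14). The stretches of 3 are shown because ODC1 and SAT1 had the smallest adjusted p of the pathway under TSA while SRM had the lowest fitted value there; each runs from the RefSeq window's upstream end to the edge of the GENCODE 29 gene, 5′ to 3′ on the gene's strand. Capitals mark the E-box CACGTG, the site that MYC family proteins are known to bind, and the GC box GGGCGG, searched on both strands.
ODC1 (chr2:10448505-10448577, minus strand, 73 bases): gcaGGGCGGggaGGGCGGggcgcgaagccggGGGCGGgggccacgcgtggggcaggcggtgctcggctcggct
SRM (chr1:11060025-11060268, minus strand, 244 bases): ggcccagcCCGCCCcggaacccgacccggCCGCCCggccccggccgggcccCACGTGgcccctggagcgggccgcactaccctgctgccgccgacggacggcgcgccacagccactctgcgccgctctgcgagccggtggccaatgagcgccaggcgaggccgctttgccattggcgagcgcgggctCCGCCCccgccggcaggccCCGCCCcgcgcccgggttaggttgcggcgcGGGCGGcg
SAT1 (chrX:23782923-23783172, plus strand, 250 bases): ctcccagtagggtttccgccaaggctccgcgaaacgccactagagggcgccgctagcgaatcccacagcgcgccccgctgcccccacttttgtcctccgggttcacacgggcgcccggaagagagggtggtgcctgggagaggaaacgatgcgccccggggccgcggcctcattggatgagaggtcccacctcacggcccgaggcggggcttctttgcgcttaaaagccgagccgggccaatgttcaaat

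The SRM stretch held 1 E-box and 5 GC boxes, the ODC1 stretch 3 GC boxes, and the SAT1 stretch neither motif. Over the full 250 bases upstream of each RefSeq start, 2 of the 7 genes held an E-box in at least 1 window, namely SRM and, at the second of its listed starts, ODC1; 7.73% of 27305 genes in the table did. GC boxes were in 6 of the 7 genes, all but SAT1, and in 46.2% of the genes in the table. These matches describe letters in a window and not binding.

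After filtering, 17589 barcodes with at least 500 genes and at most 20% mitochondrial UMIs (unique molecular identifiers, which count captured transcripts) were kept as cells. The 6 library sums held 4206366 to 26180262 UMIs, with median depths of 1054 to 1880 UMIs per cell. The DMSO sums were the shallowest. Mitochondrial genes took 5.83% and 6.20% of UMIs under DMSO, 6.08% and 9.71% under TSA, and 1.55% and 1.51% under E6R. The line's identity was checked with 10 adrenergic neuroblastoma markers, all of which were detected in every group with summed levels of 2371 to 3628 CPM (counts scaled to a common library size). The 12 markers of blood, endothelial and epithelial cells summed to 17.8 to 60.5 CPM under DMSO, 22.7 to 25.1 under TSA and 10.5 to 74.6 under E6R. Among them LYZ was at 0 under DMSO, CD3E under TSA, and CD3E and KRT5 under E6R. The endothelial gene PECAM1 had 21.7 and 27.7 CPM in the first DMSO and E6R replicates and 1.15 and 0.376 CPM in the second. The part of these differences in the results was not tested. Between 11 and 58 cell barcodes were shared by any pair of libraries, and without those 299 cells the same 5, 0 and 8 pathway genes passed in the 3 comparisons described next.

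Under TSA the pathway's first synthetic enzyme and its first catabolic enzyme were both raised. ODC1 rose 4.93-fold and SAT1 10.8-fold over DMSO, the oxidase PAOX rose 10.7-fold from a very low level, and both antizymes rose, OAZ2 1.96-fold and OAZ1 1.70-fold. Under E6R no gene of the pathway passed the test against DMSO, where 0 of all 16763 genes tested passed. In each comparison, edgeR's quasi-likelihood test was fitted to the 6 library sums over 16763 genes, with Benjamini-Hochberg adjustment over all of them and a threshold of 0.05. For TSA against DMSO, 5 of the 10 genes passed, all higher, where 29.7% of all genes tested passed, 16.2% higher and 13.5% lower. SRM, not called in this fit, passed as lower in 7 of 19 alternative settings. AZIN1 and AMD1, also not called, passed as higher in 8 and 3 of the 19. The TSA libraries lay above both DMSO libraries in 8 of the 10 genes and below them in 1, where 71.3% of all genes did not overlap, 36.7% higher and 34.6% lower. The median log2 fold change was 0.77 over the 10 genes and -0.01 over all genes. In bulk sums of this kind, a change in the number of expressing cells and a change in RNA per cell cannot be told apart.

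**Figure D1:**
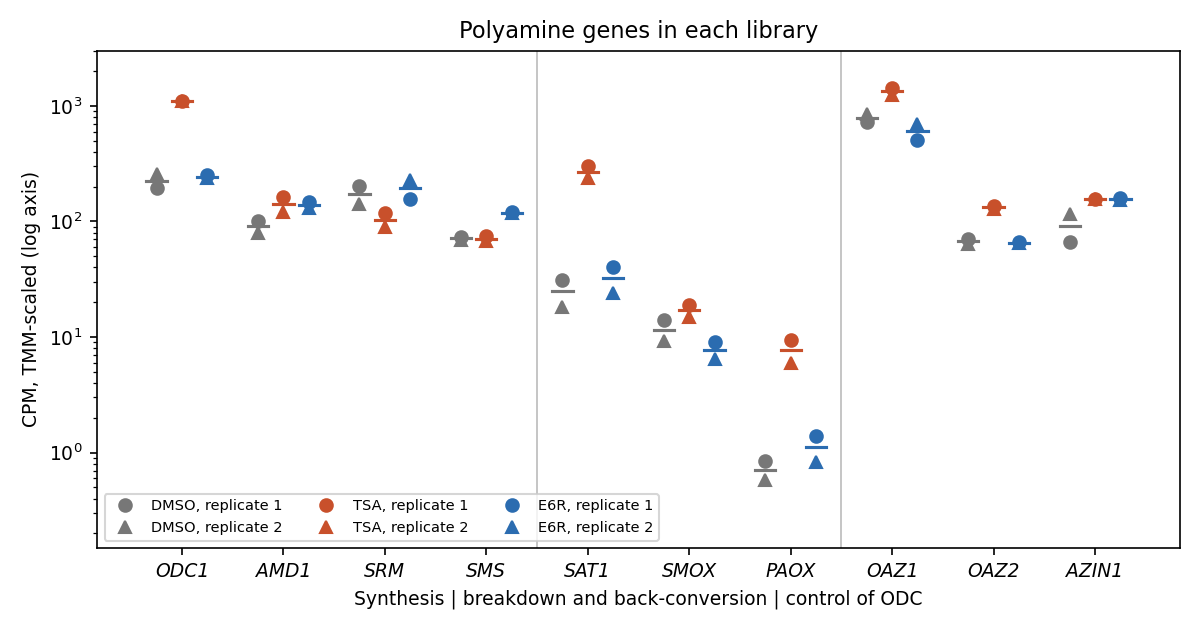
CPM with TMM-scaled library sizes (log axis) of the 10 polyamine genes, ordered by role, in each of the 6 libraries (circles replicate 1, triangles replicate 2, bars group means). ODC1 sits at 1102 and 1112 CPM in the TSA libraries and between 194 and 255 CPM in the 4 others, and SAT1 and PAOX show the same separation.

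The synthetic enzymes did not move together under TSA. ODC1 (ENSG00000115758; GRCh38 chromosome 2, 10439968 to 10448504, minus strand, with the small RNA gene SNORA80B inside it on the same strand) had 194 and 255 CPM in the DMSO libraries, 1102 and 1112 in the TSA libraries and 250 and 238 in the E6R libraries. The TSA libraries were far above the other 4, and those of DMSO and E6R overlapped. The log2 fold change for TSA was 2.30 (SE 0.22, edgeR adjusted p = 0.000918), and it passed in all 19 alternatives, at 1.99 to 2.46.

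SRM, the spermidine synthase (ENSG00000116649; chromosome 1, 11054584 to 11060024, minus strand), had 203 and 143 CPM under DMSO, 118 and 88.9 under TSA and 157 and 230 under E6R. Both TSA libraries lay below the other 4, with a log2 value of -0.74 against DMSO (95% interval -1.38 to -0.10, edgeR adjusted p = 0.0788). With total counts only SRM was called lower (-1.05, edgeR adjusted p = 0.0313). It was also called lower with no low-count filter (-0.82, 0.00781) and with only the groups compared (-0.79, 0.0327). DESeq2 called SRM lower (-0.75, adjusted p = 0.0463), and it was called without E6R replicate 1 (-0.71, edgeR adjusted p = 0.0483) and without E6R replicate 2 (-0.72, 0.0445). Over its 19 alternatives the adjusted p ran from 0.00781 to 0.379.

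SMS, the spermine synthase (ENSG00000102172; chromosome X, 21940573 to 21994835, plus strand), had 73.3 and 69.2 CPM under DMSO and 74.9 and 67.3 under TSA, and these libraries overlapped. The log2 difference was -0.0030, with a 95% interval from -0.41 to 0.41, so changes larger than that were not seen at this depth. In the E6R libraries SMS stood higher, at 120 and 117 CPM.

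AMD1, the S-adenosylmethionine decarboxylase (ENSG00000123505; chromosome 6, 110874770 to 110895713, plus strand), had 102 and 79.8 CPM under DMSO, 163 and 120 under TSA and 146 and 132 under E6R. All 4 treated libraries were above both DMSO libraries. For TSA against DMSO AMD1 passed as higher in 3 of 19 alternatives. The log2 value for TSA was 0.64 (95% interval 0.11 to 1.17, edgeR adjusted p = 0.0678), and it passed without E6R replicate 1 (0.67, adjusted p = 0.0475); the adjusted p over 19 alternatives ran from 0.0270 to 0.365. GENCODE names 5 pseudogene entries for AMD1 and 2 for SRM, which the files do not list, so reads shared with them would be uncertain.

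Summed over the synthetic enzymes, the rise under TSA lay in ODC1, since the other 3 did not rise as a sum. Among those 3, the TSA libraries lay above both DMSO libraries for AMD1, below them for SRM, and overlapped them for SMS. ODC1, AMD1, SRM and SMS together had 572 and 547 CPM under DMSO, 1457 and 1388 under TSA and 673 and 717 under E6R. Without ODC1 the other 3 summed to 378 and 292 CPM under DMSO and 356 and 276 under TSA, which overlapped, and to 423 and 479 under E6R, above both other groups. The number of ODC1 UMIs per SRM UMI, which does not depend on library scaling, was 0.952 and 1.79 under DMSO, 9.35 and 12.5 under TSA and 1.60 and 1.04 under E6R. With 2 libraries against 2, an exact two-sided permutation test of such a single value cannot go below p = 0.333.

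On the breakdown side SAT1 and PAOX had the highest fitted fold changes of the 10 genes, within each other's error. SAT1, the spermidine/spermine acetyltransferase (ENSG00000130066; chromosome X, 23783173 to 23786226, plus strand), had 31.4 and 18.4 CPM under DMSO, 300 and 237 under TSA and 40.7 and 24.1 under E6R. The TSA libraries were well above the other 4, while DMSO and E6R overlapped. The log2 fold change for TSA was 3.43 (SE 0.36, edgeR adjusted p = 0.00114), and it passed in all 19 alternatives, at 3.02 to 3.91. SAT1 UMIs per ODC1 UMI were 0.162 and 0.0719 under DMSO, 0.273 and 0.213 under TSA and 0.162 and 0.101 under E6R, so SAT1 stood higher relative to ODC1 in both TSA libraries than in any other.

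PAOX, the oxidase of acetylated polyamines (ENSG00000148832; chromosome 10, 133379234 to 133391694, plus strand, overlapping AL360181.3 on the same strand), was rare. It had 4 and 3 UMIs in the DMSO cells, 124 and 68 in the TSA cells and 22 in each E6R library, or 0.850 and 0.574, 9.42 and 5.92, and 1.39 and 0.828 CPM. Both TSA libraries were above the other 4, and the E6R and DMSO libraries overlapped. The fitted log2 fold change for TSA was 3.42 (SE 0.59, edgeR adjusted p = 0.00554). From the counts alone, the ratio of TSA to DMSO per UMI sequenced was 8.94, with an exact 95% interval from 4.26 to 22.5 that covers counting error only. The call was lost without TSA replicate 1 (log2 3.07, adjusted p = 0.0532) and with cells thinned to 1000 UMIs (1.86, adjusted p = 0.0744), with a range over 19 alternatives from 2.3e-05 to 0.0744.

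SMOX, the spermine oxidase (ENSG00000088826; chromosome 20, 4120980 to 4187747, plus strand), had 14.0 and 9.18 CPM under DMSO, 19.0 and 14.98 under TSA and 8.97 and 6.43 under E6R. The TSA libraries were the highest and the E6R libraries the lowest, with little space between the groups. Against DMSO the log2 value was 0.55 for TSA (95% interval -0.25 to 1.35, edgeR adjusted p = 0.257), with no pass in 19 alternatives.

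Of the 3 regulators of the ODC1 protein, OAZ2 and OAZ1 passed as higher and AZIN1 did not pass. OAZ2 (ENSG00000180304; chromosome 15, 64687573 to 64703281, minus strand, with 3 unnamed transcripts on the other strand) had 71.0 and 64.1 CPM under DMSO, 137 and 128 under TSA and 65.8 and 65.0 under E6R. Its TSA libraries stood above the other 4. The log2 fold change for TSA was 0.97 (SE 0.18, edgeR adjusted p = 0.00692). It was lost without DMSO replicate 2 (0.82, adjusted p = 0.0690) and without TSA replicate 1 (0.95, adjusted p = 0.0550), and the adjusted p over 19 alternatives ran from 0.00011 to 0.0690.

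OAZ1 (ENSG00000104904; chromosome 19, 2269509 to 2273490, plus strand, overlapping AC005258.1 and, on the other strand, JSRP1) had 725 and 845 CPM under DMSO, 1424 and 1244 under TSA and 508 and 702 under E6R. The 3 groups did not overlap, with TSA highest and E6R lowest. The log2 fold change for TSA, 0.76 (SE 0.23, edgeR adjusted p = 0.0411), passed by little. It did not pass with total counts only (0.46, adjusted p = 0.182), a scaling that moved the median of all genes from -0.01 to -0.32 and their calls from 2720 higher and 2255 lower to 1717 and 3361. OAZ1 also did not pass without DMSO replicate 1 (0.70, adjusted p = 0.145), DMSO replicate 2 (0.80, 0.109), TSA replicate 1 (0.69, 0.180) or TSA replicate 2 (0.90, 0.107), nor with at most 10% mitochondrial UMIs per cell (0.0518) or without mitochondrial and ribosomal protein genes (0.0581). The range over 19 alternatives was 0.00752 to 0.182.

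AZIN1, the antizyme inhibitor (ENSG00000155096; chromosome 8, 102826357 to 102893864, minus strand, overlapping AZIN1-AS1, AP003696.1 and AP003354.1 on the other strand), had 66.3 and 116 CPM under DMSO, 158 and 155 under TSA and 158 and 154 under E6R. The 4 treated libraries were nearly equal and above both DMSO libraries, which differed from each other more than the treated ones did. The log2 value for TSA was 0.78 (95% interval 0.17 to 1.39, edgeR adjusted p = 0.0577). AZIN1 passed as higher in 8 of 19 alternatives, some of which follow. DESeq2 called it higher (0.78, adjusted p = 0.0275), and so did edgeR without DMSO replicate 2 (1.16, adjusted p = 0.0278), and without E6R replicate 1 (0.82, 0.0337) or 2 (0.80, 0.0391), within a range over 19 alternatives from 0.0229 to 0.210. Whether AZIN1-AS1 reads were counted to AZIN1 cannot be told, since no source used here states whether counting used strand.

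ODC1 UMIs per OAZ1 UMI, a value free of library scaling, were 0.267 and 0.302 under DMSO, 0.774 and 0.893 under TSA and 0.493 and 0.339 under E6R. The ratio was highest in the TSA libraries, and both E6R libraries were above both DMSO libraries. In TMM-scaled CPM the 3 genes that act on ODC (OAZ1, OAZ2 and AZIN1) together gave 863 and 1025 CPM under DMSO, 1719 and 1527 under TSA and 732 and 921 under E6R.

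**Figure D2:**
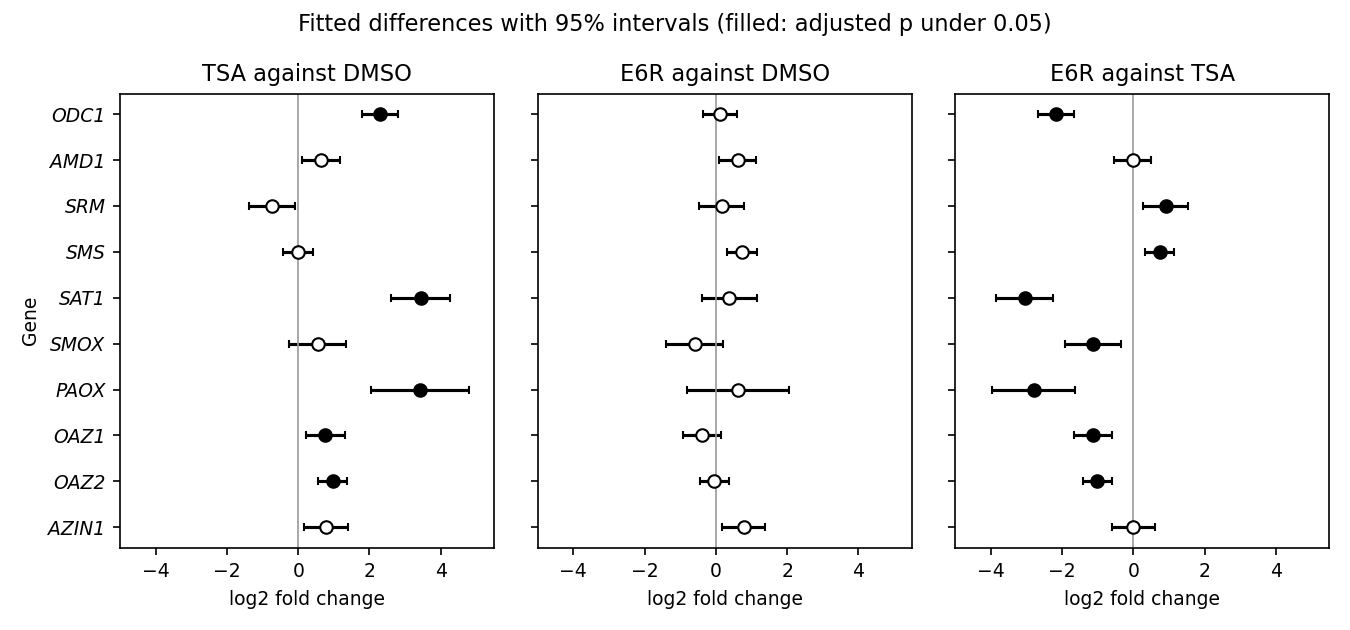
Fitted log2 fold changes of the 10 genes with 95% intervals in the 3 comparisons, from edgeR over 6 libraries; filled points passed at an adjusted p under 0.05. For TSA against DMSO 5 genes are filled and lie at 0.76 to 3.43, for E6R against DMSO none is filled, and for E6R against TSA 8 are filled, with SRM and SMS to the right of 0.

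E6R against DMSO gave no called gene among the 10, and none among all 16763 genes (0.00%). At an unadjusted edgeR p under 0.05 there were 3 of the 10, SMS, AMD1 and AZIN1, all higher, and 2913 of all genes. SMS was at 120 and 117 CPM against 73.3 and 69.2, a log2 value of 0.73 (95% interval 0.32 to 1.14, edgeR adjusted p = 0.205). DESeq2 called SMS (0.80, adjusted p = 0.0203) and no other of the 10, and edgeR without the low-count filter called SMS (0.90, adjusted p = 0.0226) and AZIN1 (0.95, adjusted p = 0.0128); the adjusted p of SMS over 19 alternatives ran from 0.0203 to 0.703 and that of AZIN1 from 0.0128 to 0.683. AMD1 had a log2 value of 0.62 (0.09 to 1.14, adjusted p = 0.238) and AZIN1 of 0.78 (0.17 to 1.39, adjusted p = 0.224). In 5 of the 10 genes the E6R and DMSO libraries did not overlap, 3 higher (SMS, AMD1, AZIN1) and 2 lower (OAZ1, SMOX), where 47.3% of all genes tested did not overlap, 24.6% higher and 22.7% lower.

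For the genes that TSA raised, the E6R values bound the change. ODC1 had a log2 value of 0.12 against DMSO, with a 95% interval from -0.36 to 0.60, and with total counts only it was -0.0098. SAT1 was at 0.38 (-0.40 to 1.16), OAZ2 at -0.05 (-0.46 to 0.36), OAZ1 at -0.38 (-0.91 to 0.16) and PAOX at 0.62 (-0.81 to 2.05). SRM was at 0.16 (-0.48 to 0.80) and SMOX at -0.59 (-1.39 to 0.21). The intervals of ODC1, SAT1, OAZ2, OAZ1 and PAOX lay below the rises fitted for TSA, and the treatments were compared directly as follows.

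E6R against TSA separated 8 of the 10 genes, 2 higher and 6 lower under E6R, where 38.2% of all genes tested passed, 18.7% higher and 19.5% lower. The same 8 genes had libraries that did not overlap, where 72.6% of all genes did not, 33.7% higher and 38.9% lower. The median log2 value was -1.08 over the 10 genes and -0.09 over all. SAT1 was lower by -3.05 (SE 0.35, edgeR adjusted p = 0.000798), PAOX by -2.80 (SE 0.51, 0.00442), ODC1 by -2.18 (SE 0.22, 0.000533), SMOX by -1.14 (SE 0.34, 0.0308), OAZ1 by -1.14 (SE 0.23, 0.00721) and OAZ2 by -1.02 (SE 0.18, 0.00372). SRM was higher under E6R by 0.90 (SE 0.28, 0.0346) and SMS by 0.74 (SE 0.18, 0.0136). The 4 synthetic enzymes did not move as one: SRM and SMS were higher under E6R, ODC1 was higher under TSA, and AMD1 did not pass. All 8 kept their direction in 19 alternatives.

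ODC1, SAT1 and OAZ2 passed in every one of these alternatives. Without TSA replicate 1 the others did not pass: SRM 1.13 (edgeR adjusted p = 0.0760), SMS 0.82 (0.0679), OAZ1 -1.04 (0.0537), PAOX -2.41 (0.0573) and SMOX -0.95 (0.196). Without TSA replicate 2, SRM (0.71, 0.220), SMS (0.66, 0.124) and SMOX (-1.30, 0.101) did not pass, and without E6R replicate 2, SRM (0.62, 0.122) and SMOX (-0.90, 0.0947) did not. With cells thinned to 1000 UMIs SMS was at 0.37 (adjusted p = 0.278), its lowest value, and SRM (0.89, 0.0632) and SMOX (-1.27, 0.0616) did not pass. SRM also did not pass with at most 10% mitochondrial UMIs (0.85, edgeR adjusted p = 0.0528), nor SMOX with total counts only (-0.97, 0.0597) or no low-count filter (-0.90, 0.0748). The deposited matrix of TSA replicate 2 carries the mark reWTA, which the labels do not explain, and its part in these values was not tested. Across 19 alternatives the adjusted p ran from 4.92e-05 to 0.220 for SRM, from 0.000815 to 0.278 for SMS and from 0.00773 to 0.196 for SMOX.

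AMD1 and AZIN1 did not differ detectably between the treatments. AMD1 was at -0.02 (95% interval -0.54 to 0.49, edgeR adjusted p = 0.943) and AZIN1 at -0.0047 (-0.61 to 0.60, adjusted p = 0.9902). Both stood above DMSO in all 4 treated libraries, and the 2 comparisons with DMSO share its libraries.

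MYCN, whose product binds E-boxes, was set beside ODC1 and SRM, the 2 of the 7 genes with an E-box in at least 1 window. It had 394 and 313 CPM under DMSO, 215 and 291 under TSA and 733 and 657 under E6R; its log2 value was 0.98 for E6R against DMSO (edgeR adjusted p = 0.205) and -0.48 for TSA (adjusted p = 0.148). For E6R against TSA it was 1.46 (adjusted p = 0.00273). DESeq2 called MYCN higher for E6R against DMSO (1.05, adjusted p = 0.00832), and total counts only called it lower for TSA (-0.80, edgeR adjusted p = 0.0323); over 19 alternatives the adjusted p ran from 0.00127 to 0.653 and from 0.0323 to 0.604. In library order MYCN had E6R highest and TSA lowest, ODC1 had TSA highest with DMSO and E6R overlapping, and SRM had TSA lowest. MYCN did not pass against DMSO for either treatment in the main fit. Any part of MYCN in the levels of ODC1 or SRM was not tested.

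Single cells were compared after thinning each to 1000 UMIs, which kept 11937 cells and left out 674 and 1450 shallower ones under DMSO, 615 and 503 under TSA and 692 and 1718 under E6R. A UMI of ODC1 was found in 16.1% and 22.8% of DMSO cells, 59.1% and 57.2% of TSA cells and 20.7% and 18.0% of E6R cells. Exact (Clopper-Pearson) 95% intervals were 14.0% to 18.3% and 20.8% to 24.9% under DMSO and 56.8% to 61.4% and 55.3% to 59.0% under TSA. Without thinning the shares were 26.5% and 29.5% under DMSO, 77.0% and 77.1% under TSA, and 43.2% and 34.2% under E6R. At equal depth, then, the E6R shares lay within the range of the DMSO shares, and the TSA shares stood apart. The share of cells with 4 or more ODC1 UMIs was 0.00% and 0.0595% under DMSO, 4.16% and 2.40% under TSA, and 0.00% in both E6R libraries.

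SAT1 was found in 3.45% and 2.32% of thinned DMSO cells, 23.1% and 17.2% of TSA cells and 3.91% and 2.11% of E6R cells. The TSA shares were again apart from the rest, and E6R and DMSO overlapped. The unthinned shares were 7.09% and 2.87%, 46.9% and 36.4%, and 14.3% and 9.22% in the same order. For SRM the thinned shares were 19.0% and 15.2% under DMSO, 9.99% and 7.39% under TSA and 12.5% and 23.0% under E6R. Unthinned, SRM was in 28.4% and 18.7% of DMSO cells and 30.2% and 19.7% of TSA cells, an order that goes against its CPM and was not read.

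**Figure D3:**
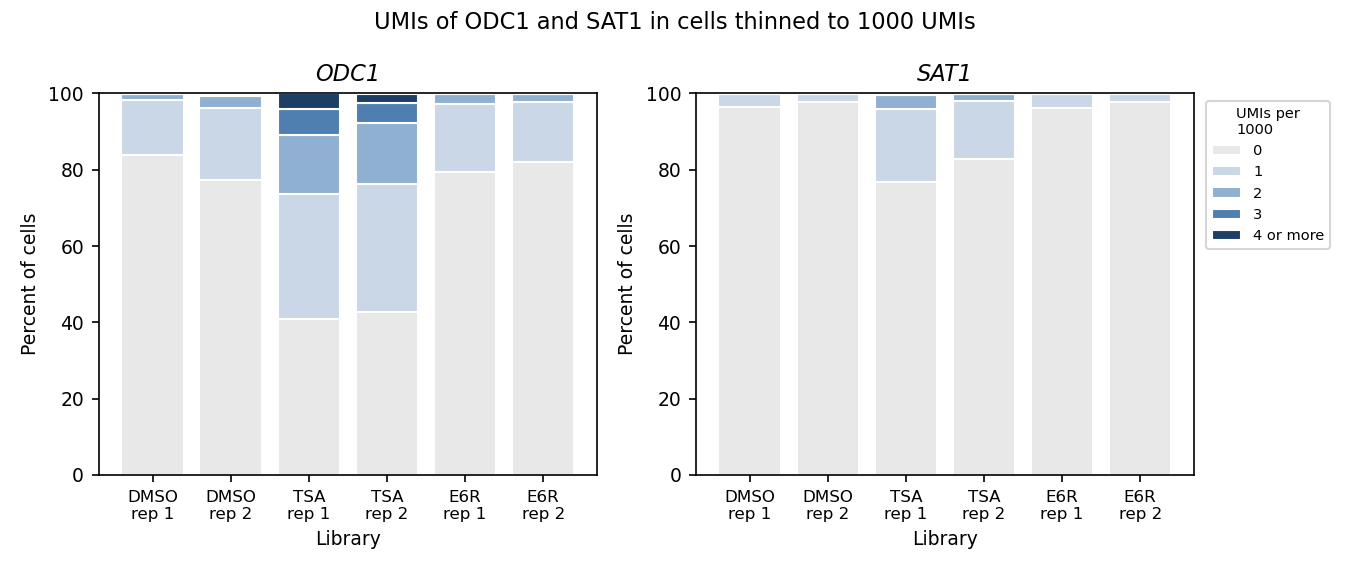
Percent of cells (bars sum to 100) holding 0, 1, 2, 3 or at least 4 UMIs of ODC1 (left) or SAT1 (right) in each library, after thinning every cell to 1000 UMIs. In the TSA libraries 40.9% and 42.8% of cells held no ODC1 UMI, against 77.2% to 83.9% in the other 4 libraries.

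OAZ1, found in 54.8% and 56.8% of thinned DMSO cells, was in 70.7% and 65.7% of TSA cells and 41.0% and 47.8% of E6R cells, so the 3 groups did not overlap. AZIN1 was in 5.39% and 10.6% of DMSO cells, 12.9% and 11.9% of TSA cells and 13.6% and 12.3% of E6R cells. AMD1 was in 9.18% and 8.03%, 13.4% and 9.36%, and 11.6% and 11.7%, and OAZ2 in 7.08% and 6.06%, 11.2% and 9.21%, and 6.503% and 5.57%, in the same order of groups. SMS was in 5.98% and 8.92% of DMSO cells, 7.83% and 5.59% of TSA cells and 10.1% and 9.83% of E6R cells. SMOX and PAOX were in under 2% of thinned cells in every library, near the level of 1 UMI, and no change was read from them. All cells belong to 1 line, so no cell type lacking these genes was at hand to measure free RNA. In the barcodes left out by the cell filter, ODC1 had 765 and 678 CPM under TSA and 167 and 236 under DMSO. Whether those UMIs came from free RNA, and any part of free RNA in the shares, was not tested.

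Whether the pathway followed division was examined within the libraries. Thinned cells with at least 3 UMIs of 15 mitotic genes (such as MKI67 and TOP2A) were compared with cells that had none. These positive cells made up 55.4% and 79.3% of DMSO cells, 53.0% and 61.4% of TSA cells and 59.2% and 71.9% of E6R cells. The negative class held 50 to 315 cells per library, and the 298 to 899 cells per library with 1 or 2 such UMIs were left out, so the classes are ends of a range. Of the 8 polyamine genes tested none passed, where edgeR with library as a block called 9.22% of 7246 genes, 5.15% higher and 4.07% lower; none had an unadjusted p under 0.05, and no second tool was run.

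ODC1 had 198 to 1148 CPM (median 259) in positive cells and 173 to 1374 (median 221) in negative cells over the 6 libraries, a log2 difference of -0.05 with a 95% interval from -0.26 to 0.17. In the TSA libraries it was 1049 and 1148 CPM in positive cells and 1374 and 1233 in negative cells, so the level was high in both classes. Under DMSO ODC1 stood at 198 and 280 CPM in positive cells and 173 and 247 in negative cells. Under E6R it stood at 238 and 201 CPM in positive cells and 185 and 196 in negative cells. ODC1 was thus higher in positive cells in 4 of 6 libraries. The negative classes of those 4 held 13 to 51 ODC1 UMIs, and a difference in direction between treatments was not tested. SAT1, which had 0 UMIs in the 50 negative cells of DMSO replicate 2, in the TSA libraries was at 307 and 248 CPM in positive and 319 and 241 in negative cells, and its overall difference was -0.25 (-0.60 to 0.10). The largest fitted rise in positive cells was that of SMS, 0.25 (-0.12 to 0.62), higher in 5 of 6 libraries (edgeR adjusted p = 0.494). OAZ2 was at -0.27 (-0.62 to 0.07), AMD1 at -0.14, OAZ1 at -0.09, SRM at 0.10 and AZIN1 at 0.06.

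Around the 10 genes, a list of 29 further pathway genes was counted, of which 24 passed the low-count filter. For TSA against DMSO 9 of the 24 passed, 5 higher and 4 lower, beside 29.7% of all genes; the median log2 value was 0.12. For E6R against DMSO 0 passed, beside 0 of all 16763 genes tested, with a median of 0.27. At an unadjusted edgeR p under 0.05 there were 4 of the 24, beside 2913 of the 16763. For E6R against TSA 11 passed, 7 higher and 4 lower, beside 38.2% of all genes, with a median of 0.14. These counts are not read as a result about the list.

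For TSA against DMSO, polyamine transport held the largest fitted changes of this list in both directions. SLC18B1, which loads polyamines into vesicles, fell under TSA from 11.3 and 10.7 CPM to 2.20 and 1.65 (log2 -2.50, SE 0.36, edgeR adjusted p = 0.00284), and stood at 14.5 and 11.5 under E6R. SLC12A8, a solute carrier of the cation-chloride family, rose under TSA from 2.76 and 3.25 CPM to 42.7 and 18.3 (3.34, SE 0.59, adjusted p = 0.00597), and stood at 5.24 and 2.18 under E6R. The TSA libraries were apart from the other 4 for both genes. Of the 5 transport genes tested, these were the only ones that passed for TSA against DMSO, beside 29.7% of all genes. That count is not read as a result about transport genes.

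In the salvage of methionine, which recycles the by-product of SRM and SMS, 2 genes were lower and 2 higher under TSA. MTAP, the phosphorylase that cleaves that by-product, fell from 46.1 and 38.1 CPM to 18.9 and 18.2 (log2 -1.18, SE 0.21, edgeR adjusted p = 0.00610), with 60.5 and 57.5 under E6R. ADI1, the dioxygenase near the pathway's end, fell from 72.2 and 71.7 CPM to 28.6 in both TSA libraries (-1.33, SE 0.23, adjusted p = 0.00536), with 95.8 and 65.8 under E6R. GOT1, a transaminase that can complete the cycle, had 61.2 and 73.4 CPM under DMSO, 137 and 127 under TSA and 52.6 and 61.3 under E6R, and was higher for TSA against DMSO (0.97, SE 0.20, adjusted p = 0.00947) and lower under E6R than under TSA (-1.21, SE 0.19, adjusted p = 0.00272). MRI1, the isomerase that acts after MTAP, was also higher for TSA, from 42.7 and 25.1 CPM to 72.7 and 63.7 (1.012, SE 0.29, adjusted p = 0.0358); it and the 3 genes named next were picked after their values were seen. Of the 8 genes of methionine supply and salvage, 2 were called higher and 2 lower for TSA, and for E6R against TSA 4 higher and 1 lower, beside 29.7% and 38.2% of all genes. Among the 7 tested genes of ornithine supply and member relatives, 2 were higher for TSA, OAT (1.29, edgeR adjusted p = 0.0118) and AZIN2 (2.24, 0.0320). Among the 4 of the hypusine pathway, which uses spermidine to modify the translation factor EIF5A, 1 was lower for TSA, the hydroxylase DOHH (-0.90, edgeR adjusted p = 0.0363). The ornithine and hypusine counts stand beside 29.7% of all genes called for TSA, near that share, and are not read as a result about these lists.

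**Figure D4:**
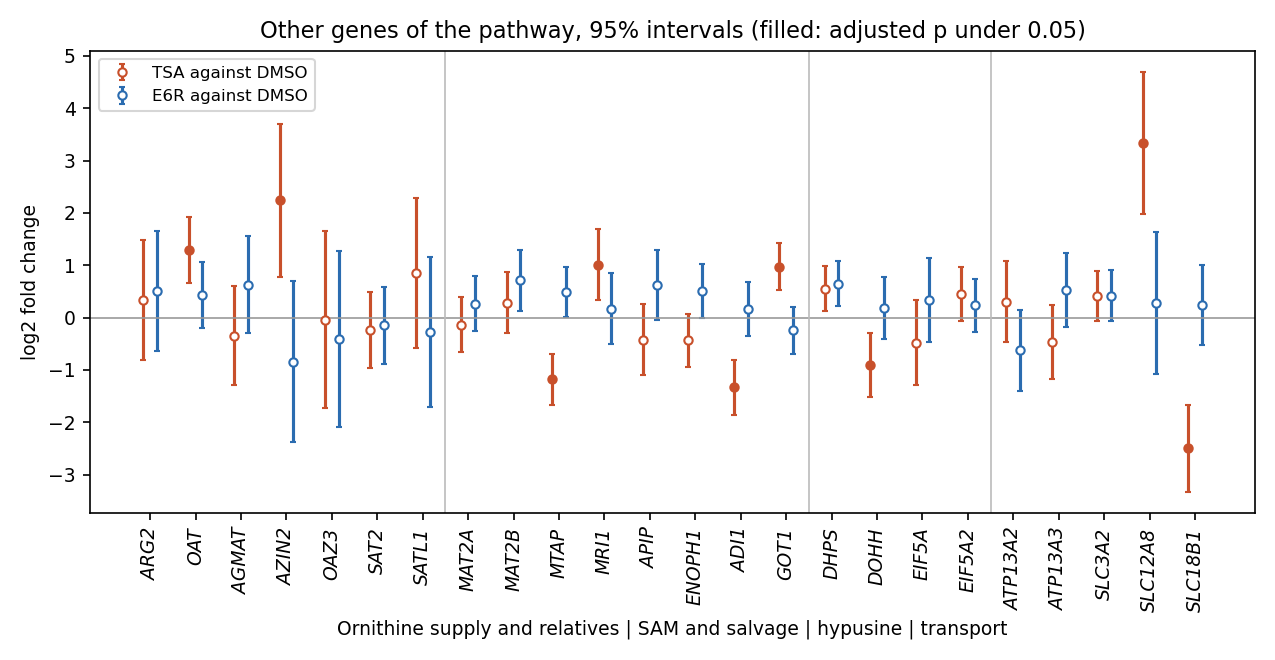
Fitted log2 fold changes with 95% intervals of the 24 further pathway genes that passed the low-count filter, for TSA (orange) and E6R (blue) against DMSO; filled points passed at an adjusted p under 0.05. The filled points are all TSA, 5 above and 4 below 0, with SLC12A8 the highest at 3.34 and SLC18B1 the lowest at -2.50.

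Genes whose levels over the 6 libraries were much like those of ODC1 and SAT1 were found among 7514 others with a mean of at least 20 CPM, by Pearson's r of log2 CPM. For ODC1 these included NGFR (r = 0.998) and EZR (0.998), and for SAT1 the 3 nearest were ZNRD2 (0.999), GADD45B (0.998) and VWA1 (0.998). NGFR, for example, had 9.14 and 11.3 CPM under DMSO, 63.5 and 55.7 under TSA and 11.4 and 11.0 under E6R. With 61 genes at r of 0.99 or more for ODC1 and 31 for SAT1, and 6 libraries of which 2 stand apart, these values only describe the shared pattern.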

How the data were processed

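Per the labels, 6 Seq-Well S3 libraries of 1 cell line were deposited as matrices of UMI counts per gene and barcode, not normalized. STARsolo 2.7.9a and GRCh38 are named in the submitters' processing notes; no source used here gives parameters, annotation, barcode selection or strand rule. Barcodes with at least 500 genes and at most 20% UMIs from the 13 mitochondrial genes were kept, and counts were summed per library, because cells are not replicates. Doublets were not called; an alternative dropped the top 5% of cells by UMIs. Sums were tested with edgeR 4.0.16 (R 4.3.3; TMM, filterByExpr, group only, all 6 libraries in one fit), after a test on simulated data. DESeq2 1.42.0 was an alternative. CPM use TMM-scaled library sizes. Standard errors come from the F statistic. Thinning drew 1000 UMIs per cell without replacement. Gene positions are from GENCODE 29 (GRCh38). The common biological coefficient of variation was 0.288. Chi-square per degree of freedom between replicates was 19.7 to 79.3, so no pair agreed within counting noise. The 10 genes and all lists were chosen with earlier results of these data known. All 10 were named; further pathway genes were named where called and among the 4 smallest adjusted p of their list; the 3 nearest patterns to ODC1 and SAT1 were taken, 1 of which is not reported here.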

Additional observations from a re-analysis of the deposited data

Results flagged for a closer look

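Barcodes left out by the cell filter (11090 to 13172 per library, with 2331683 to 3929320 UMIs) were outside the comparisons, and some pathway genes stood higher there in both treated libraries than in both DMSO libraries. Under TSA the mean level in these barcodes, in CPM of their plain UMI sum, was 721 for ODC1 (highest DMSO library 236), 196 for SAT1 (30.9), 1023 for OAZ1 (829) and 5.59 for PAOX (1.12). Under E6R it was 97.5 for SMS (74.7), 115 for AMD1 (84.5) and 122 for AZIN1 (99.9). Other genes stood lower there in both treated libraries than in both DMSO libraries. Under TSA these were SRM (96.4 and 64.4 CPM against 203 and 180) and SMS (53.8 and 43.5 against 71.5 and 74.7). Under E6R they were OAZ1 (481 and 560 against 715 and 829) and OAZ2 (49.7 and 52.4 against 90.7 and 60.1). SMOX was also lower under E6R (8.15 and 10.2 against 15.1 and 14.6). No difference was tested in these barcodes, and the share of all genes standing apart in them was not counted.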

How the results depend on the processing

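The 19 alternatives of each comparison changed the scaling, tool, filters, cells, libraries or block, and some changed several of these together. DESeq2 changed the tool and, using its own filtering, started from the 31532 genes of the fit with no low-count filter. Thinning also left out cells under 1000 UMIs, and the setting with all barcodes dropped both cell filters. Changes of cells or libraries also changed how many genes were tested. The setting without shared barcodes was chosen after seeing the data. Where a group keeps 1 library, that library is assumed to vary like the others. With total counts only, 5 genes were still called for TSA against DMSO, but SRM, lower, took the place of OAZ1. The 5 genes called for TSA against DMSO became 8 with the replicate block and 2 to 8 with a library left out (lowest without TSA replicate 1, highest without E6R replicate 1). The 8 for E6R against TSA became 5 with cells thinned to 1000 UMIs and 3 to 8 with a library left out (3 without TSA replicate 1, 5 without TSA replicate 2). For E6R against DMSO the count of 0 became 1 with DESeq2 (tool and filter changed together) and 2 with no low-count filter, and stayed 0 with each library left out. The cause was not tested.
The numbers shared by replicates do not pair the libraries by design, since no label ties them to a culture or day; same-numbered libraries deviated together with r = 0.24 (DMSO and TSA), 0.56 (DMSO and E6R) and 0.17 (TSA and E6R) over 7515 genes. With the replicate block 8, 0 and 8 of the 10 genes and 6047, 19 and 7567 of all genes were called; for TSA against DMSO the block added SRM lower (-0.74, edgeR adjusted p = 0.0467) and AMD1 (0.63, 0.0283) and AZIN1 (0.81, 0.0229) higher. Over all genes, 4975 calls for TSA against DMSO became 1416 to 6028 with a library left out, and 6408 for E6R against TSA became 2628 to 6385 (4136 thinned). The 0 for E6R against DMSO became 424 with DESeq2, 1095 with no low-count filter, 3 without either E6R replicate, and 1 with all barcodes, without mitochondrial and ribosomal protein genes, or without shared barcodes.
Signs turned only for differences that were not called. For TSA against DMSO, SMS was 0.0039 with at least 300 genes, 0.0998 with all barcodes, 0.0892 thinned, and -0.12 to 0.11 with a library left out. For E6R against DMSO, ODC1 was -0.0098 with total counts and -0.0299 thinned; SRM was -0.0024 with at least 1000 genes and -0.10 to 0.57 with a library left out. OAZ2 was 0.0232 with DESeq2, 0.119 with no filter, 0.0085 with at least 1000 genes, 0.0133 with all barcodes and -0.078 to 0.16 with a library left out, and PAOX was -1.55 thinned. For E6R against TSA, AMD1 and AZIN1 were 0.146 and 0.172 with total counts, 0.0518 and 0.0713 with DESeq2, 0.223 and 0.245 with no filter, 0.0427 and 0.0594 with only the groups compared, and 0.0689 and 0.0890 without mitochondrial and ribosomal protein genes. AZIN1 was 0.0028 with at least 1000 genes, 0.0158 with at most 10% mitochondrial UMIs and 0.0075 with all barcodes. With a library left out AMD1 ran from -0.23 to 0.22 and AZIN1 from -0.015 to 0.11. Between mitotic-gene-positive and negative cells, SRM was -0.0275 and OAZ1 0.0161 thinned to 1500 UMIs, and ODC1 0.155, AMD1 0.0513 and OAZ1 0.118 with no filter; with a library left out ODC1 ran from -0.11 to 0.089, SRM from -0.018 to 0.17 and AZIN1 from -0.044 to 0.18.
PAOX rests on 7 DMSO UMIs and the negative mitotic class on as few as 50 cells, which limits both.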
